A study of Mus musculus with 6 samples.

Results

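The kinesins are motor proteins that walk along microtubules or shorten them, and the family members described here are the rows of the deposited count table whose symbol is Kif followed by a number and at most 1 letter, or Kifc followed by a number. This rule found 40 genes among 24470 listed. The RNA came from naive CD4+ T cells of male C57BL/6J mice, purified with magnetic beads (MACS) from the spleen and the lymph nodes that drain the skin. Both groups were activated for 6 h with anti-CD3 and anti-CD28 antibodies, which trigger the T cell receptor and its costimulatory receptor and were fixed to the wells from a solution of 1 µg/mL under 200 µL of culture. To 3 of them recombinant mouse CCL19, a chemokine that naive T cells sense through the receptor CCR7, was added (CCL19), and 3 received none (NoCKN). The comparison of these groups asks how the chemokine alters transcripts of T cells that are being activated. Whether replicates came from separate mice or cultures is not stated, and a p-value here measures only the spread among the samples, possibly a technical one.

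Kinesins share a motor domain that burns ATP and differ in what the rest of the protein carries. Mitotic kinesins build and move the spindle, align chromosomes and divide the cell at cytokinesis, and their genes are usually transcribed late in the cell cycle. Transport kinesins haul organelles, vesicles and protein complexes through the cytoplasm at any time. A mixed remainder works at cilia and centrioles or sets the length of microtubules. In T cells, microtubule motors help to bring the centrosome and secretory vesicles toward the contact with an antigen-presenting cell. Of the 40 genes, 13 were classed as mitotic, 15 as transport and 12 as ciliary or microtubule-regulating, from general knowledge of the family.

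Promoter letters were used neither for the family rule nor for the classes, and their motifs were counted by class. RefSeq promoters (GRCm38.p6, which is the mm10 assembly of the count table; 250 bases before to 50 after each start site) were at hand for 32 of the 40 genes. Those not matched were Kif5a, Kif5b, Kif13b, Kif19a, Kif20a, Kif21b, Kifc2 and Kifc3. The cell cycle genes homology region (CHR), the DNA element through which the DREAM and MuvB complexes hold late cell cycle genes silent in resting cells and switch them on before mitosis, was searched as TTTGAA or TTCGAA on both strands. A match stood in 10 of 12 mitotic promoters (83.3%), in 1 of 10 transport promoters (10%, Kif1a) and in 3 of 10 of the others (30%, Kif24, Kif26b and Kif27), against 19.2% of 32851 promoters of the same length. The mitotic genes without a match were Kif18a and Kif2b. The CCAAT box, searched as CCAAT on both strands, stood in 8 of 12 mitotic, 3 of 10 transport and 4 of 10 other promoters, against 37.4% of all. A gene with several start sites was counted if any of its promoters matched, while the share of all promoters counts each promoter. GC content of the windows ran from 43.7% to 65.0% for mitotic and from 51.7% to 86.7% for transport genes (median of all promoters 52.7%). The part of GC content in these shares was not tested. A match is a description of the letters and not evidence that a factor binds there.

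The 100 bases before the start site are shown for 3 mitotic kinesins, because their CHR match stands at nearly the same distance from the start, and for the 2 transport kinesins Kif3a and Kif3b, which form 1 motor together and have a CCAAT box and no CHR in these windows. Capitals mark matches to the CHR (TTCAAA on the printed strand) and the CCAAT box (CCAAT or ATTGG). Kif15 is at chr9:122950981-122951080 on the plus strand, Kif11 at chr19:37376282-37376381 on the plus strand, Kif22 at chr7:127042421-127042520 on the minus strand, Kif3a at chr11:53567269-53567368 on the plus strand and Kif3b at chr2:153291316-153291415 on the plus strand.
Kif15: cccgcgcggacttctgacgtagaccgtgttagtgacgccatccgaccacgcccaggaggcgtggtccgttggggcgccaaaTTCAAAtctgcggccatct
Kif11: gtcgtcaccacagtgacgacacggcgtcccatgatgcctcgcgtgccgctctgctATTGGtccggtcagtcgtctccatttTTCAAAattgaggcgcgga
Kif22: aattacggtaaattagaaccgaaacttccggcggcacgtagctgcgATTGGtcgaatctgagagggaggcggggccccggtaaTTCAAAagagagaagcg
Kif3a: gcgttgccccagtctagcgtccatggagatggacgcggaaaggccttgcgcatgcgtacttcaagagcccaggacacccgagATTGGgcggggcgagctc
Kif3b: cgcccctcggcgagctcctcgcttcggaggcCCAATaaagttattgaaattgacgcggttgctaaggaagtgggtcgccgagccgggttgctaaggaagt
Counting the start site as 1 and the base before it as -1, the CHR match began at -19 in Kif15, at -19 in Kif11 and at -17 in Kif22. Kif11 and Kif22 also carried a CCAAT box upstream of it, at -45 and -54. Kif15 had no CCAAT box in its window. A further CHR match stood at -234 in Kif15 and at -215 in Kif22, outside the stretch shown.

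**Figure D1:**
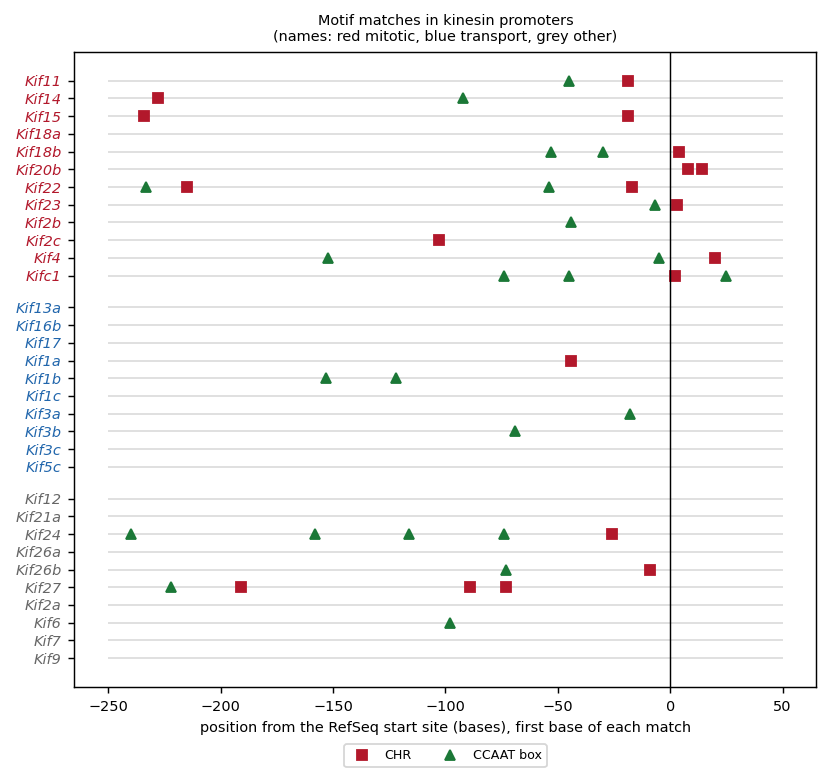
Each row is the promoter of 1 kinesin gene from 250 bases before to 50 after the RefSeq start site (vertical line; the first where a gene has several), with squares at CHR matches and triangles at CCAAT boxes by the position of their first base. CHR matches occur in 10 of 12 mitotic promoters, most of them close to the start site, and in 1 of 10 transport promoters.

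The 6 libraries held between 16978736 and 27429898 counts, and between 13790 and 14360 genes had a count in a library. Pearson's r of log2 CPM, which are counts divided by library size with TMM factors, between libraries lay between 0.984 and 0.9935. All 14 T cell markers, among them Cd3e, Cd4, Lck and Tcf7, were detected, at a summed 6626 to 7616 CPM with CCL19 and 7451 to 8496 CPM without it, and 2 of the 14 had a log2 fold change above 0. Summed markers of B cells (7 genes, none at 0) lay between 17.0 and 23.4 CPM with CCL19 and between 22.5 and 25.9 CPM without it, with 0 of 7 above 0. The other cell type markers came to similar low sums, with 12.4 to 17.2 CPM for the 2 CD8 genes, 26.1 to 29.2 CPM with CCL19 and 28.6 to 32.7 CPM without it for the 5 NK genes, 14.4 to 21.6 CPM for the 9 myeloid genes and 11.7 to 18.5 CPM for the 5 erythroid genes. None of these genes was at 0 in all libraries, and the part of such cells in the results below was not tested. These are bulk samples, in which fewer cells that express a gene and less RNA per cell cannot be told apart.

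Counts above 0 were found for 37 of the 40 kinesins, and edgeR's filter on low counts kept 29: 12 mitotic, 13 transport and 4 of the others. Kif21a, Kif2b and Kif6 had no count in any library, which allows at most 0.0222 CPM over all libraries pooled (3 counts, for counting error only). Kif1a, the motor of synaptic vesicle precursors in neurons, and Kif12 each had 1 count in all. The rest of those below the filter were Kif27 with 3 counts over the 6 libraries, Kif26a with 4, Kif19a with 14, Kif26b with 15, Kif17 with 22 and Kif9 with 39, and no fold change is given for them. Most of the genes below the filter thus belong to the ciliary class, of which 4 of 12 members were tested.

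Compared per length, as CPM per kilobase of annotated exon (RPKM), the levels covered a wide range. Kif21b, which restrains the growth of microtubules, stood highest at 67.0 RPKM (mean of 6 libraries; lowest to highest 54.9 to 85.3). Next came the conventional kinesin heavy chain Kif5b at 26.2 RPKM (22.7 to 29.1), Kif1b, a carrier of mitochondria and vesicle precursors, at 20.8 RPKM (19.1 to 22.8), and Kif3b, a subunit of heterotrimeric kinesin-2, at 14.4 RPKM (13.9 to 15.6). The ranges of Kif5b and Kif1b touched, and with the longest transcript as the length their order turned over (34.7 and 35.8 RPKM), so these 2 were not separated. Kif1c at 9.68 RPKM and the microtubule-shortening motor Kif2a at 8.22 RPKM followed.

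Kif15 had the highest level among the mitotic kinesins. Its 7.20 RPKM (4.88 to 9.45) exceeded that of each other mitotic member, the next being the spindle pole motor Kifc1 at 1.98 RPKM (1.63 to 2.51) and Kif20b, which acts in abscission, at 1.53 RPKM (1.32 to 1.85). The mitotic kinesins Kif18a, Kif18b, Kif2c, Kif4 and Kif14 lay between 0.0702 and 0.231 RPKM. Kif15 held 70.98% ± 2.49 (SD, n = 3) of the summed mitotic CPM with CCL19 and 61.96% ± 6.26 (n = 3) without it. With the longest transcript as the length, Kif15 stood at 16.3 RPKM and was number 4 of the family. Close relatives were as uneven: Kif5b stood at 26.2 RPKM while its relatives Kif5c and Kif5a stood at 0.484 and 0.0987 RPKM, and Kif21b stood at 67.0 RPKM while Kif21a had no count.

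**Figure D2:**
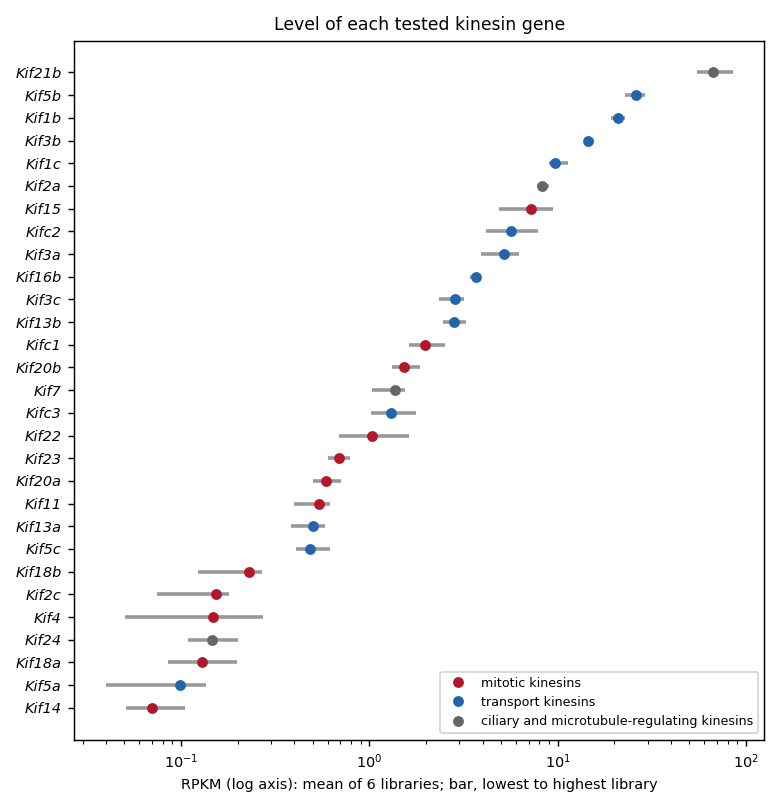
Level of each of the 29 tested kinesin genes in RPKM on a log axis, as the mean of the 6 libraries (point) and the lowest to highest library (bar), coloured by class. Kif21b leads at 67.0 RPKM, and Kif15, at 7.20 RPKM, is the highest of the mitotic genes.

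The comparison of CCL19 with NoCKN was made with edgeR's quasi-likelihood test over all 11666 genes that passed the filter. At a Benjamini-Hochberg adjusted p under 0.05 edgeR called 0 kinesins higher and 0 lower, as it called 0 of all genes (0% in each direction). For 361 genes it gave the same smallest adjusted p, 0.0505. At an unadjusted p under 0.05, edgeR had 3 kinesins higher (background 14.5% of tested genes) and 4 lower (background 13%; 27.5% in either direction). DESeq2, whose 1168 calls at an adjusted p under 0.05 are the same 1168 genes as in the authors' deposited table, called 1 kinesin higher (background 6.55%) and 2 lower (background 5.6%) of the 20 to which it gave an adjusted p. These were Kif15, higher, and Kif21b and Kifc2, lower, and the authors' deposited table lists them with these directions. The groups did not overlap for 2 kinesins that stood higher (background 15.3%) and 4 that stood lower (background 14.5%; 29.8% in either direction) of 29 tested. With DESeq2, 12.2% of genes were called in either direction. The family's counts lay near these shares and are no result about the family as a whole.

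The 3 DESeq2 calls depended in part on which libraries were kept. Without CCL19 replicate 2 DESeq2 called the same 3 kinesins among 123 genes, and without NoCKN replicate 2 the same 3 among 1010 genes. Without CCL19 replicate 1 DESeq2 called 0 kinesins and 55 genes in all (adjusted p = 0.0526 for Kif15 and for Kif21b, and none given for Kifc2), and without NoCKN replicate 1 it called 2, Kif15 and Kif21b, of 105 genes, with none given for Kifc2. Without CCL19 replicate 3 it called 5 of 1704 genes, adding Kif3a and Kifc3, and without NoCKN replicate 3 it called 5 of 1258 genes, adding Kif22 and Kif5b. Without CCL19 replicate 3 edgeR called 1599 genes, among them 5 kinesins, Kif15 and Kifc3 higher and Kif21b, Kif3a and Kifc2 lower. Without NoCKN replicate 3 edgeR called 513 genes, among them Kif15, Kif21b and Kifc2. limma-voom called 0 kinesins and 0 genes (0%). Its lowest adjusted p was 0.051, and 27.7% of genes had an unadjusted p under 0.05.

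Kif15 is a plus-end-directed motor that keeps the spindle bipolar together with Kif11. Its gene (NCBI Gene 209737, mm10 chromosome 9, 122951081 to 123018733) stood at 104, 87.0 and 89.5 CPM in CCL19 replicates 1, 2 and 3 and at 53.7, 69.1 and 72.5 CPM in the NoCKN replicates. Every CCL19 library lay above every NoCKN library, and replicate 1 held both extremes. The means were 93.5 ± 9.24 CPM (SD, n = 3) and 65.1 ± 9.98 CPM (n = 3), a 1.44-fold difference. The log2 fold change was 0.52 ± 0.11 (SE; edgeR adjusted p = 0.0505, DESeq2 adjusted p = 0.0021).

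No other mitotic kinesin had groups that stood apart. Kif22, a chromokinesin that pushes chromosome arms toward the spindle equator (NCBI Gene 110033, chromosome 7, 127027731 to 127042420), stood at 3.37, 3.94 and 5.01 CPM with CCL19 and at 7.98, 5.82 and 4.18 CPM without it. The groups overlapped, since CCL19 replicate 3 lay above NoCKN replicate 3. Its log2 fold change was -0.55 ± 0.23 (SE; edgeR adjusted p = 0.135), and -0.29 without NoCKN replicate 1. Kifc1, a minus-end motor that gathers microtubules at spindle poles, stood at 6.56, 6.35 and 5.56 CPM with CCL19 against 8.56, 7.39 and 6.13 CPM. These groups overlapped too, with a log2 fold change of -0.27 ± 0.16 (edgeR adjusted p = 0.29). Kifc1 has a near copy, Kifc5b, which stood at 3.67 ± 1.3 and 5.02 ± 0.928 CPM (n = 3 each), and the sources used here do not give how reads that fit both were counted.

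Kif11, which slides antiparallel spindle microtubules apart and works beside Kif15, stood at 4.51, 3.75 and 4.59 CPM with CCL19 and at 4.38, 4.04 and 2.99 CPM without it, and the groups overlapped in part (log2 fold change 0.15, 95% interval -0.26 to 0.57). Kif23, the motor of the centralspindlin complex of cytokinesis, stood at 5.27 ± 0.436 against 5.62 ± 0.567 CPM (n = 3 each; -0.10, interval -0.44 to 0.24). Kif20b stood at 11.2 ± 1.86 against 10.2 ± 0.273 CPM (0.14, interval -0.14 to 0.43). The intervals of Kif23 and Kif20b ended below the 0.52 of Kif15 and that of Kif11 did not, and the differences between these genes were not tested. Kif20a, which brings the chromosomal passenger complex to the midzone, stood at 2.51 ± 0.485 against 2.57 ± 0.0922 CPM (n = 3 each). Its exons overlap those of Cdc23 on the other strand by 1271 bases, and those of Kif4 overlap Pdzd11 by 832, so that counts of both are uncertain where strand was not used. The remaining tested members, Kif18a and Kif18b (plus-end motors that damp chromosome movement or position the spindle), the depolymerase Kif2c, the chromokinesin Kif4 and the cytokinesis motor Kif14, stood at means between 0.584 and 1.31 CPM in either group. With CCL19 and without it these means were 1.31 and 1.24 CPM for Kif18a, 0.927 and 0.72 for Kif18b, 0.755 and 0.584 for Kif2c, 0.894 and 0.727 for Kif4 and 0.685 and 0.77 for Kif14. Their intervals were wide, from -0.41 to 1.18 for Kif18b and from -0.78 to 1.27 for Kif4, so changes as large as that of Kif15 were not detectable at this depth. The summed CPM of the mitotic class was 1.26 times as high with CCL19 (131.6 ± 8.93 against 104.6 ± 5.88 CPM, n = 3 each), and without Kif15 it was 0.963 times (38.1 ± 2.13 against 39.6 ± 4.17 CPM).

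**Figure D3:**
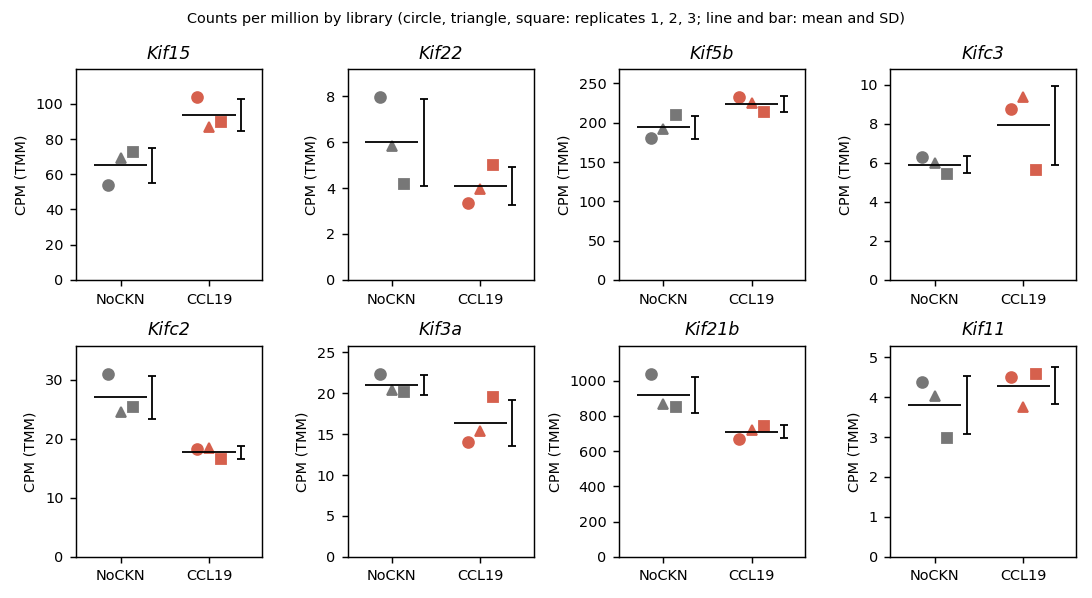
CPM of 8 kinesin genes in each library, with the mean (line) and SD (bar) of 3 libraries per group; circles, triangles and squares are replicates 1, 2 and 3, and each vertical axis starts at 0. Kif15 and Kif5b are higher in all 3 CCL19 libraries, Kifc2, Kif3a and Kif21b are lower in all 3, and the groups overlap for Kif22, Kifc3 and Kif11.

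Among transport kinesins Kifc2 had the largest relative difference. It encodes a motor with its motor domain at the C-terminal end, described mainly in neurons (NCBI Gene 16581, chromosome 15, 76660641 to 76668196). It stood at 18.3, 18.4 and 16.5 CPM with CCL19 and at 31.0, 24.5 and 25.4 CPM without it, so that the highest CCL19 library lay below the lowest NoCKN library. The means were 17.7 ± 1.09 and 27.0 ± 3.56 CPM (SD, n = 3 each; 0.657-fold), and the log2 fold change was -0.61 ± 0.11 (SE; edgeR adjusted p = 0.0505, DESeq2 adjusted p = 0.0016). In the GENCODE annotation its exons overlap those of Cyhr1 on the other strand by 163 bases. Cyhr1 had a log2 fold change of -0.23 ± 0.08 (edgeR adjusted p = 0.104).

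Kif3a and Kif3b are the 2 motor subunits of heterotrimeric kinesin-2, and only the first stood apart between groups. Kif3a (NCBI Gene 16568, chromosome 11, 53567369 to 53604246) stood at 14.1, 15.4 and 19.5 CPM with CCL19 and at 22.4, 20.4 and 20.1 CPM without it. All 3 CCL19 libraries were lower, but replicate 3 only just, and the log2 fold change was -0.36 ± 0.12 (SE; edgeR adjusted p = 0.0857; DESeq2 adjusted p = 0.0666). Kif3b stood at 80.4 ± 2.13 against 82.2 ± 5.15 CPM (n = 3 each), with a log2 fold change of -0.03 (95% interval -0.19 to 0.13). Kif3c, the alternative partner of Kif3a, stood at 19.6 ± 2.14 against 22.4 ± 1.94 CPM with a log2 fold change of -0.19 (-0.42 to 0.04). Exons of Kif3c overlap an antisense transcript, 1110002L01Rik, by 2617 bases. The difference between Kif3a and Kif3b was not tested. Kifap3, the adaptor subunit of the complex, had a log2 fold change of 0.28 ± 0.19 (edgeR adjusted p = 0.355).

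Kif5b, the heavy chain of conventional kinesin (NCBI Gene 16573, chromosome 18, 6201005 to 6241524), stood at 233, 225 and 214 CPM with CCL19 and at 181, 192 and 210 CPM without it. The groups did not overlap, although CCL19 replicate 3 and NoCKN replicate 3 were close. Its log2 fold change was 0.20 ± 0.08 (SE; edgeR adjusted p = 0.117; DESeq2 adjusted p = 0.0817). Kifc3, a minus-end motor of epithelial junctions and apical transport, stood at 8.78, 9.39 and 5.61 CPM with CCL19 and at 6.32, 5.97 and 5.43 CPM without it. CCL19 replicate 3 lay within the NoCKN range, and the log2 fold change was 0.42 ± 0.18 (edgeR adjusted p = 0.157) with all libraries and 0.27 without CCL19 replicate 2. Exons of Kifc3 overlap the antisense gene Gm45812 by 173 bases, so its counts are uncertain where strand was not used.

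Kif1b, the most counted transport kinesin, stood at 337, 354 and 368 CPM with CCL19 and at 401, 348 and 393 CPM without it. The groups overlapped, with a log2 fold change of -0.11 ± 0.08 (edgeR adjusted p = 0.414). Kif13a, which carries cargo from the Golgi and recycling endosomes, did not overlap between groups at 3.73, 3.83 and 3.11 against 4.42, 4.70 and 4.56 CPM, but edgeR gave it an adjusted p of 0.198. The endosome motor Kif16b stood at 33.6 ± 1.67 against 32.9 ± 1.73 CPM (n = 3 each; log2 fold change 0.03, 95% interval -0.15 to 0.21). Kif13b, a relative of Kif13a, stood at 35.7 ± 3.7 against 37.9 ± 4.32 CPM (-0.09, interval -0.31 to 0.14). Kif1c, a motor of Golgi and vesicle traffic, stood at 66.5 ± 2.01 against 74.3 ± 7.53 CPM (-0.16, interval -0.34 to 0.02). For these 3 the interval of the difference held 0. The neuronal heavy chains Kif5a and Kif5c were scarce, at 0.579 against 0.801 CPM and 3.46 against 3.45 CPM on average, and their intervals ran from -1.43 to 0.41 and from -0.47 to 0.50.

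Kif21b carried the largest difference in CPM of the family. It is a kinesin-4 that pauses microtubule growth, and in T cells it is known to keep microtubules short enough for the centrosome to move to the synapse. The gene (NCBI Gene 16565, chromosome 1, 136131401 to 136178014) stood at 669, 719 and 745 CPM with CCL19 and at 1040, 869 and 853 CPM without it. No CCL19 library reached the lowest NoCKN library, and NoCKN replicate 1 stood above the other two. The means were 711 ± 38.6 and 921 ± 103 CPM (SD, n = 3 each; 0.772-fold), and the log2 fold change was -0.37 ± 0.09 (SE; edgeR adjusted p = 0.0505, DESeq2 adjusted p = 0.00275). It was -0.28 without NoCKN replicate 1. Kif21b supplied 40.2% ± 1.23 of all kinesin CPM with CCL19 and 46.6% ± 2.29 without it (n = 3 each).

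For each other tested member of that class the interval held 0. Kif2a, a depolymerase that also acts at spindle poles, stood at 53.3, 49.8 and 57.2 CPM with CCL19 and at 53.3, 50.7 and 51.2 CPM without it, a log2 fold change of 0.05 (95% interval -0.12 to 0.22). Its exons overlap those of Dimt1 on the other strand by 1229 bases. Kif7, which works in Hedgehog signalling at the tip of the cilium, stood at 6.16 ± 1.22 against 6.38 ± 0.727 CPM (n = 3 each; -0.05, interval -0.41 to 0.32) and shares 877 exonic bases with the antisense gene 9330171B17Rik. The centriolar Kif24 stood at 1.16 ± 0.138 against 1.18 ± 0.378 CPM (-0.05, interval -0.73 to 0.64).

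The mitotic and transport classes were then set side by side, as a description without a test. The median log2 fold change was 0.13 over the 12 tested mitotic kinesins, of which 7 were above 0, and -0.11 over the 13 tested transport kinesins, of which 4 were above 0, against -0.00074 over all tested genes, of which 49.8% were above 0. After correction for base composition and length by an offset, the medians were 0.026 and -0.080, and without CCL19 replicate 1 the mitotic median was -0.0084. The sum of transport CPM was 862 ± 8.62 with CCL19 and 887 ± 41.9 without it (n = 3 each), within the spread of the NoCKN libraries. Without Kif1b and Kif5b the transport sum was 285.7 ± 2.85 against 312.4 ± 24.0 CPM. All 3 CCL19 libraries (283 to 288.7 CPM) then lay below all 3 NoCKN libraries (295.7 to 339.9 CPM). The sum of the third class was 772 ± 41.8 against 980 ± 104 CPM. Without Kif21b it was 61.3 ± 4.49 against 59.9 ± 1.29 CPM, so that it followed Kif21b, as the mitotic sum followed Kif15. Within 1 library the log2 ratio of Kif15 to Kif21b CPM was -2.68, -3.05 and -3.06 with CCL19 and -4.27, -3.65 and -3.56 without it.

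**Figure D4:**
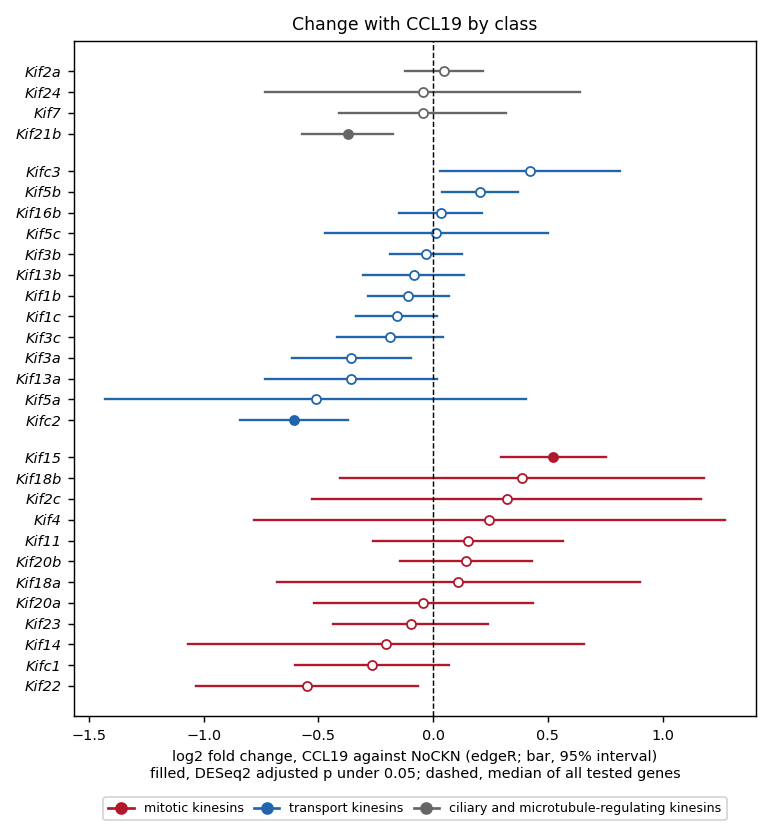
Log2 fold change of each of the 29 tested kinesins, CCL19 against NoCKN, with its 95% interval from edgeR, ordered within class; filled points have a DESeq2 adjusted p under 0.05 and the dashed line is the median of all tested genes. Kif15 stands above and Kifc2 and Kif21b below it, and low-count members such as Kif4 and Kif5a have wide intervals.

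Base composition moved with the fold change over the whole table. Spearman's rho between GC content of the longest transcript and log2 fold change was -0.32 over 11188 tested genes and -0.38 over the 29 tested kinesins, as a description of points that come from the same 6 libraries. Genes were put into 10 classes of equal size by GC content. Kifc2 (59.5% GC) lay in the class richest in GC, whose median log2 fold change was -0.15, and Kif21b (56.7%) in the next, at -0.11. Kif15 (42.7%) lay in class 2 from the low end, at 0.080. Kifc3, with 59.8% GC, stood in the highest class and yet above 0. With the offset, log2 fold changes were -0.47 for Kifc2 (edgeR adjusted p = 0.0935), 0.45 for Kif15 (edgeR adjusted p = 0.0935) and -0.26 for Kif21b (edgeR adjusted p = 0.11). The part of base composition in these differences was not tested further.

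**Figure D5:**
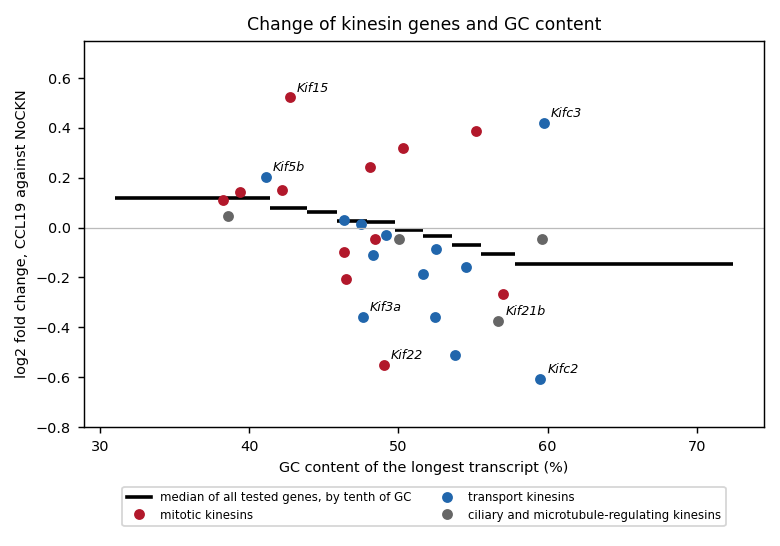
Log2 fold change of the 29 tested kinesins (points, coloured by class; those with an edgeR p under 0.05 named) against GC content of the longest transcript, with the median of all tested genes in each of 10 GC classes (black bars). The bars step down from 0.12 to -0.15, and Kif15, Kifc2 and Kif21b lie farther from 0 than the bars at their GC content.

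The partners of transport kinesins were read from a list of light chains, adaptors and linkers. Of 20 tested, DESeq2 called 1 higher and 1 lower among the 19 to which it gave an adjusted p (all genes: 6.55% and 5.6%). At an unadjusted p under 0.05 edgeR had 3 higher and 6 lower (all genes: 14.5% and 13%), and the median log2 fold change was -0.07. The kinesin light chain Klc4, which links heavy chains to cargo, was the lower one, at 20.9, 25.4 and 25.3 CPM with CCL19 against 40.5, 34.4 and 31.2 CPM (log2 fold change -0.56 ± 0.11; edgeR adjusted p = 0.0505, DESeq2 adjusted p = 0.00194). Arl8b, the GTPase that couples lysosomes to kinesin-1, was the higher one, at 63.7 ± 2.98 against 52.1 ± 3.67 CPM (n = 3 each; 0.29 ± 0.08; DESeq2 adjusted p = 0.0268). The light chain Klc3 (-0.48) and the lysosomal adaptor Plekhm1 (-0.23) stood lower in all 3 CCL19 libraries without passing either test.

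The opposite motor, cytoplasmic dynein with dynactin and its adaptors, had 30 tested genes, a median of -0.01, and 3 higher and 4 lower at an unadjusted edgeR p under 0.05 (all genes: 14.5% and 13%). DESeq2, which called 12.2% of all genes, called 1 of them, the adaptor Hook1, higher at 52.8 ± 5.45 against 43.4 ± 1.36 CPM (n = 3 each; 0.28 ± 0.09; DESeq2 adjusted p = 0.0474). The dynactin subunits Dctn1 (-0.23) and Dctn2 (-0.22) and the adaptor Bicdl1 (-0.23) stood lower without passing. Of 15 tested tubulin genes DESeq2 called 0 of the 11 to which it gave an adjusted p (all genes: 12.2%), and edgeR had 3 higher and 1 lower at an unadjusted p under 0.05 (all genes: 14.5% and 13%). Tuba1a stood at 54.4 ± 8.27 against 66.4 ± 2.94 CPM and Tuba1b at 55.1 ± 2.36 against 47.5 ± 2.99 CPM (n = 3 each), so these 2 alpha-tubulin genes pointed in opposite directions. Tuba4a (0.21) and the low-count Tubb6 (0.46) were the other two of smallest p. Tubulin genes are near copies of each other, and their counts are uncertain for that reason.

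Mitotic partners of the kinesins were read from a list of genes active in the G2 and M phases. Of 35 tested, edgeR had 0 higher and 3 lower at an unadjusted p under 0.05 (all genes: 14.5% and 13%). DESeq2 called 0 of the 13 to which it gave an adjusted p (all genes: 12.2%), and the median was -0.11. The 3 were Incenp, the scaffold of the chromosomal passenger complex, at 23.4 ± 1.1 against 27.4 ± 1.78 CPM, cyclin B2 (Ccnb2) at 1.81 ± 0.199 against 2.64 ± 0.0529 CPM and Cdca8 at 2.53 ± 0.719 against 3.67 ± 0.213 CPM (n = 3 each; edgeR adjusted p = 0.131, 0.136 and 0.156). Aurkb, the kinase of the same complex, stood at 0.507 ± 0.243 against 0.889 ± 0.157 CPM. The summed level of the 38 listed genes was 303 ± 11.4 CPM with CCL19 and 319 ± 6.52 CPM without it (n = 3 each). All 3 CCL19 libraries (289.8 to 309.9 CPM) lay below all 3 NoCKN libraries (313.6 to 326 CPM) in this sum. Bub3 (118 against 117 CPM) and Fzr1 (60.8 against 68.6 CPM) had the highest levels and weigh most in this sum.

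The last list held repressors and brakes of cycling in resting cells. These were subunits of the DREAM and MuvB complexes, pocket proteins, inhibitors of cyclin-dependent kinases and the antiproliferative factors Tob1, Btg1 and Btg2. Of 19 tested, DESeq2 called 2 higher and 3 lower among the 18 to which it gave an adjusted p (all genes: 6.55% and 5.6%), and the median was -0.02. Those lower were the antiproliferative factor Tob1 (log2 fold change -0.47 ± 0.09; DESeq2 adjusted p = 0.00242), the kinase inhibitor p27 (Cdkn1b, -0.37 ± 0.09, at 136 ± 14.2 against 176 ± 18.5 CPM, n = 3 each) and the inhibitor Cdkn2d (-0.42 ± 0.12). Those higher were the inhibitor p21 (Cdkn1a, 0.47 ± 0.12, at 85.9 ± 8.39 against 62.2 ± 12.1 CPM) and Tfdp1, the dimer partner of E2F factors (0.33 ± 0.10). edgeR called 0 of the list, with 2 higher and 5 lower at an unadjusted p under 0.05 (all genes: 14.5% and 13%), and the DESeq2 calls went in both directions.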

How the data were processed

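The submitters' processing notes name STAR 2.5, featureCounts 1.5.0-p1 (Subread), DESeq2 1.28.1 and the build mm10, without their order. The table deposited by the authors holds raw counts, whole numbers with no normalization. How strand and multiply matching reads were handled, and the annotation release, the sources used here do not give. A deposited table by the authors names 1168 changed genes with their direction.

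Groups and replicate numbers came from sample titles. Counts were tested with edgeR 4.0.16 in R 4.3.3 (filterByExpr, TMM, quasi-likelihood F test, Benjamini-Hochberg over 11666 genes, threshold 0.05). DESeq2 1.42.0 (independent filtering at 0.1), limma-voom (limma 3.58.1), RLE size factors, other filters on low counts, a robust prior, a replicate block, each library left out, and an offset for GC content and length (natural splines of 5 degrees of freedom) were alternatives. The SE was taken as the log2 fold change over the square root of edgeR's F. CPM used TMM and the counts of tested genes, RPKM the union of exons in GENCODE M21 (same assembly), matched by NCBI Gene ID. Exon overlaps are from the same annotation, and gene positions are the mm10 coordinates deposited with the counts. The edgeR, DESeq2 and limma-voom fits at their main settings were first checked on simulated data, and the other alternatives were not.

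The family, its classes and the other lists were chosen with earlier results of these data known. By rule, every tested member is named, values in every library go to members with an edgeR p under 0.05, a DESeq2 call, a place in the deposited list or the 2 highest RPKM of their class, and up to 4 genes of smallest p are named from each other list. Kif11, Kif13a, Kifap3, Klc4, Bub3, Fzr1 and Cdkn2d were given more than the rule asks, chosen after their values were seen. Also named outside the rule were Cd3e, Cd4, Lck, Btg1 and Btg2, and genes that overlap or nearly copy a kinesin. Figures were drawn with matplotlib 3.10.9.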

Additional observations from a re-analysis of the deposited data

How the results depend on the processing

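edgeR called 0 genes and 0 kinesins. DESeq2 called 1168 genes and 3 kinesins, edgeR with no filter on low counts 1600 and 5 (with Kif22 and Kif3a lower), and edgeR with a robust prior 529 and 3; the cause was not tested. Leaving out each library gave between 0 and 1599 genes and between 0 and 5 kinesins with edgeR, and between 0 and 5 kinesins with DESeq2, the last run added after the data were seen. Each of these fits kept at least 2 libraries per group. The replicate block called 0 genes and 0 kinesins. For same-numbered libraries the correlations of deviations from the group means were -0.16, 0.081 and -0.021. For differently numbered libraries they lay between -0.2143 and 0.217. With 3 libraries per group these values cannot decide whether a shared number marks paired samples. Leaving out each library moved the mitotic median between -0.0084 and 0.17 and the transport median between -0.166 and -0.0686. Over the alternatives in which they were tested (14, less the filter of 1 CPM for Kif18b, Kif2c, Kif5a, Kif4 and Kif14), 19 of the 29 kinesins kept their direction and 10 changed sign in at least 1, none of which edgeR or DESeq2 called in any setting. Kif4 turned to -0.0129 with limma-voom, and Kif2a to -0.0619 and Kif7 to 0.105 with the GC and length offset. On leaving out each library the log2 fold change ran for Kif2a from -0.0131 to 0.0962, Kif3b from -0.0709 to 0.0212, Kif4 from -0.255 to 0.666, Kif5c from -0.196 to 0.235, Kif7 from -0.145 to 0.0914, and for Kif14 from -0.502 to 0.157, Kif16b from -0.0161 to 0.0559, Kif18a from -0.309 to 0.363, Kif20a from -0.198 to 0.0355 and Kif24 from -0.208 to 0.248. It ran for Kif15 from 0.401 to 0.6, Kif21b from -0.428 to -0.276, Kifc2 from -0.68 to -0.492, Kif3a from -0.511 to -0.273 and Kifc3 from 0.268 to 0.613. Kinesins under about 1 CPM had intervals too wide to show a 1.5-fold difference.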
